A study of Mus musculus with 4 samples.

Results

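The genes described are those of respiratory complex I, chosen by name: every gene of the expression table whose symbol begins with Nduf (nuclear genome) or mt-Nd (mitochondrial genome). They number 53 of 22073 genes, with 46 Nduf and 7 mt-Nd genes. The rule uses symbols alone. RNA came from the right testis of 2 hemicastrated and 2 control mice of the outbred KM strain, and all 4 were sexually mature. The hemicastrated mice had lost the left testis before puberty. The control mice, labelled normal, had a sham operation at that time. The labels give no genotype other than the strain and no age in days, and all 4 mice had surgery. One label counts 3 mice per group. The 2 libraries per group are analysed here as 4 separate mice, since the extraction notes count 4 individuals. The comparison asks whether complex I mRNAs stand at another level in the testis that remains.

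Complex I is the entry point of the mitochondrial respiratory chain. It takes electrons from NADH, passes them through a flavin and a chain of iron-sulfur clusters to ubiquinone, and pumps protons across the inner membrane. The matrix arm holds the N module, which binds NADH, and the Q module, which reduces ubiquinone. The membrane arm holds the proton pumps, whose core is encoded by mitochondrial DNA, while all other subunits are nuclear. In the testis, meiotic cells rely heavily on respiration, Sertoli cells are largely glycolytic, and the sperm midpiece is packed with mitochondria. In whole-testis RNA, fewer cells of a type and less RNA per cell cannot be told apart.

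Values are deposited FPKM, fragments scaled to transcript length and to mapped fragments, so levels can be set side by side between genes. The files give no read depth, so errors come from how far the libraries of each group differ. Summed FPKM was 343105 to 353135 over the hemicastrated libraries and 344316 to 346632 over the control libraries. Testis markers were high in all 4 libraries, with Prm1, a sperm protamine, at 5732 and 6458 FPKM in the hemicastrated and 5802 and 5995 FPKM in the control libraries. Epididymal and smooth muscle markers were lower in the hemicastrated than in the control libraries, and the cause was not tested. The summed FPKM of 8 epididymal genes was 4.91 and 6.71 in the hemicastrated and 956 and 1408 in the control libraries. Of these 8 genes, 5 were tested and 4 called lower, while Lcn5 and Lcn8 were listed at 0 in all 4 libraries. The summed FPKM of 6 smooth muscle genes was 30.6 and 27.7 in the hemicastrated and 97.2 and 76.8 in the control libraries, and 5 of the 6 were called lower. The summed FPKM of 5 round spermatid genes was 595 and 588 in the hemicastrated and 496 and 503.5 in the control libraries, and none of the 5 was called. The summed FPKM of 5 spermatocyte genes was 286 and 254.5 in the hemicastrated and 240.1 and 238 in the control libraries, with 4 of 5 log2 fold changes positive (median 0.42, against 0.27 for the round spermatid genes) and none called. For 7 Sertoli cell genes the sums were 236 and 227 FPKM in the hemicastrated and 188 and 193 FPKM in the control libraries. For 6 Leydig cell genes they were 1896 and 1793 FPKM in the hemicastrated and 1624 and 1525 FPKM in the control libraries. Both sums were higher without overlap, and none of these genes was called. Single genes weigh heavily in both. Insl3, a Leydig cell gene, was at 1609 and 1484 FPKM in the hemicastrated and 1272 and 1232 FPKM in the control libraries. Cst9, a Sertoli cell gene, was at 110.5 and 111.5 against 62.8 and 76.75 FPKM. Of 5 tested Sertoli cell genes, 3 log2 fold changes were positive and 2 negative. Of 6 tested Leydig cell genes, 2 were positive and 4 negative (median -0.07). The part of these cell type markers in any complex I value was not tested.

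The mitochondrially encoded subunits form the core of the membrane arm. ND1 closes the quinone channel beside the matrix arm, ND2, ND4 and ND5 are antiporter-like proton pumps, and ND3, ND4L and ND6 lie between them. Of the 7 genes, 5 had high values and 2 were at or near 0 in every library. mt-Nd1 was at 819 and 813 FPKM in the hemicastrated and 724 and 731 FPKM in the control libraries. The means were 816 ± 3.92 FPKM in the hemicastrated and 728 ± 5.41 FPKM in the control libraries (SD, n = 2 each). Both hemicastrated values lie above both control values, and the libraries of each group lie close together. mt-Nd3 was at 0.470 FPKM and listed at 0 in the hemicastrated libraries, and listed at 0 and at 0.854 FPKM in the control libraries. mt-Nd4l was listed at 0 in all 4 libraries. An exact 0 can be a failed estimate in such tables, so these genes are described as listed at 0 and given no fold change.

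The genes at or near 0 are neighbours. In genome order, mt-Co2, mt-Atp8, mt-Atp6, mt-Co3, mt-Nd3 and mt-Nd4l follow each other without a break, and none of these 6 exceeded 0.854 FPKM in any library. The genes on either side of the run are mt-Co1, at 1414 and 1446 FPKM in the hemicastrated and 1541 and 1428 FPKM in the control libraries, and mt-Nd4, at 229 and 142 FPKM in the hemicastrated and 186 and 195 FPKM in the control libraries. The GENCODE M21 annotation (GRCm38) holds copies of 6 mitochondrial genes, from mt-Co2 to mt-Nd4, in a stretch of nuclear chromosome 1 from base 24611535 to base 24615565. The copies keep the order and spacing of the mitochondrial genes to within 1 base. Of the 6 genes in the run, 5 have such a copy over 99.87% to 100% of the coding sequence, at 99.71% to 100% identity, and mt-Atp8 has none annotated that met the criterion used here (at least 95% identity over at least 50% of the coding sequence). In the mitochondrial genome mt-Atp8 lies between mt-Co2 and mt-Atp6, and both of these have copies in the stretch. Only annotated transcripts were searched, so the bases of the stretch outside annotated copies were not compared with mt-Atp8. mt-Nd4, outside the run, has a copy over 63.57% of its coding sequence at 100% identity. None of the copies on chromosome 1 is a row of the expression table. A copy also exists for 2 genes with high values: mt-Co1 has one on chromosome 2 at 97.6% identity, and mt-Nd5 has one on chromosome 13, Gm4076, at 95.18% identity over 52.39% of the coding sequence. Of these 2 copies, only Gm4076 is a row of the expression table.

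**Figure D1:**
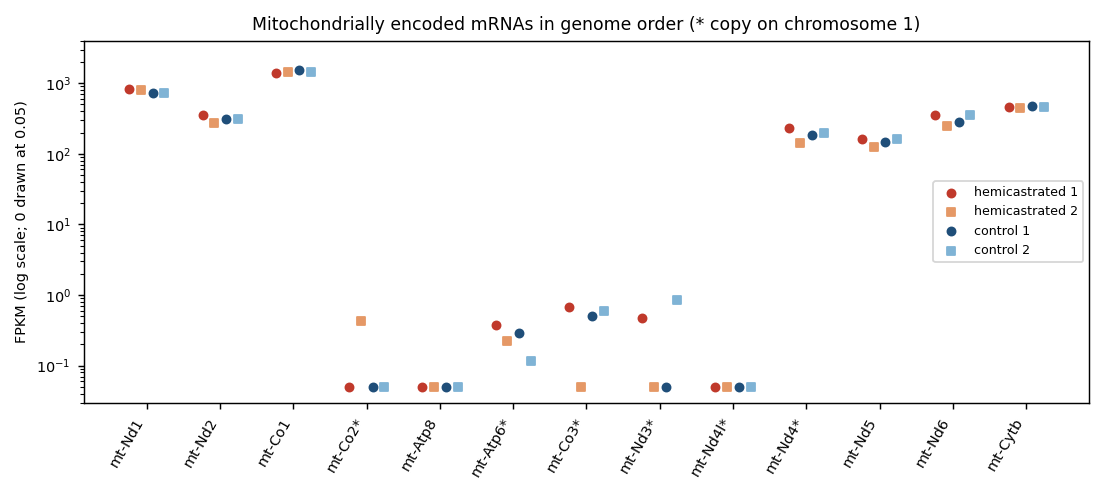
FPKM (log scale, with 0 drawn at 0.05) of the 13 mitochondrially encoded mRNAs in genome order, with 1 point per library (red and orange hemicastrated, blue shades control). The 6 genes from mt-Co2 to mt-Nd4l lie below 1 FPKM in all 4 libraries, and the 7 others lie above 100 FPKM.

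The sequences below show how close these copies are. They are the opening bases of mt-Nd4l and mt-Nd3 (mitochondrial genome, bases 9877 to 10173 and 9459 to 9806, plus strand), each above its copy on chromosome 1 (Gm10222, 24612407 to 24612700; Gm28438, 24612775 to 24613119; both on the minus strand). Transcript sequences are from GENCODE M21. Capitals mark a base that differs. The 294 coding bases of mt-Nd4l and its copy have 0 differences, and the 345 of mt-Nd3 have 1, which is T3C (mt-Nd3 base, position from 1 at the start of the coding sequence, copy base).
mt-Nd4l: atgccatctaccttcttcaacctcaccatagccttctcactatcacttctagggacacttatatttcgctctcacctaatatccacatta
Gm10222: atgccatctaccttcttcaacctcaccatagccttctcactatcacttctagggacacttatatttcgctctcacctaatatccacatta
mt-Nd3: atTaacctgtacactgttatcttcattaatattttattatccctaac
Gm28438: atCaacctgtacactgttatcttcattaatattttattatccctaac
The sequences are those of the reference strain, and those of KM mice were not analysed here. The sources used here do not state how reads that match both places were assigned, and its part in the low values was not tested.

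The 5 measured mt-Nd genes did not all share the same pattern across the libraries, and mt-Nd1 stood apart from the others in hemicastrated 2. mt-Nd2 was at 358 and 272 FPKM in the hemicastrated and 311 and 315 FPKM in the control libraries. mt-Nd5 was at 159.7 and 124 FPKM in the hemicastrated and 146 and 163 FPKM in the control libraries. mt-Nd6 was at 350.3 and 249 FPKM in the hemicastrated and 279.8 and 354 FPKM in the control libraries. In mt-Nd2, mt-Nd4, mt-Nd5 and mt-Nd6 the lowest of the 4 values belonged to hemicastrated 2, and in mt-Nd1 that library stood above both controls. mt-Nd6 is the only mRNA template on the other strand of the mitochondrial genome. Its annotated exon overlaps that of mt-Nd5 from base 13552 to base 13565 only. The protocol names no step that marks the strand, so any RNA from the opposite strand across mt-Nd6 would count in its value. How much of the value this makes up was not tested, and the limit carries into the mt-Nd sums and medians.

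**Figure D2:**
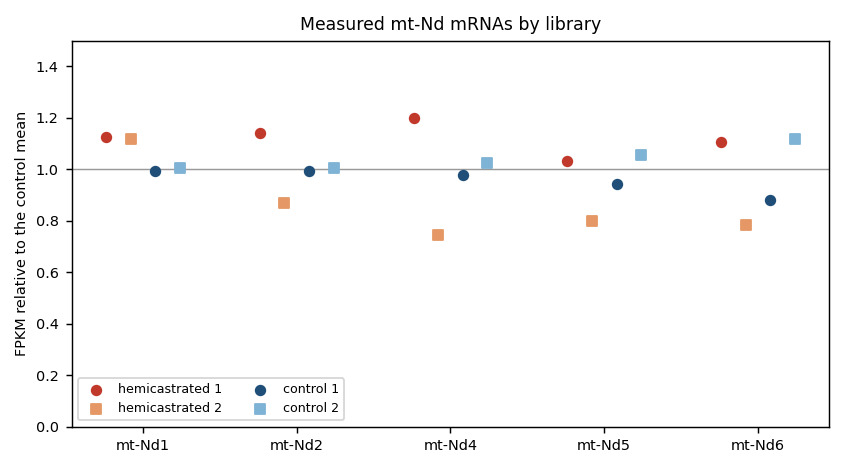
FPKM of the 5 measured mt-Nd mRNAs in each library divided by the control mean of that gene (vertical axis from 0, line at 1), with red and orange for hemicastrated and blue shades for control libraries. Hemicastrated 2 has the lowest point for mt-Nd2, mt-Nd4, mt-Nd5 and mt-Nd6, while both hemicastrated points lie above the control points for mt-Nd1.

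Relative to mt-Nd1 in the same library, mt-Nd4 had a ratio of FPKM of 0.280 and 0.175 in the hemicastrated and 0.257 and 0.267 in the control libraries. For mt-Nd2 this ratio was 0.437 and 0.334 in the hemicastrated and 0.429 and 0.431 in the control libraries. The groups overlap in both ratios and in that of mt-Nd6. They do not overlap for mt-Nd5, at 0.195 and 0.152 in the hemicastrated and 0.202 and 0.223 in the control libraries. The same held for mt-Co1 (1.73 and 1.78 against 2.13 and 1.95) and mt-Cytb (0.569 and 0.544 against 0.6645 and 0.632). All these ratios share mt-Nd1, itself higher in the hemicastrated libraries, as denominator. The mt-Nd sum includes mt-Nd3 and mt-Nd4l, at or near 0, and mt-Nd4 and mt-Nd5, which have copies over part of their coding sequence. The part of these copies in the sum and in the mt-Nd4 and mt-Nd5 ratios was not tested. The summed mt-Nd genes took 0.558% and 0.453% of all FPKM in the hemicastrated and 0.475% and 0.511% in the control libraries. That is 0.506% ± 0.074 in hemicastrated and 0.493% ± 0.026 in control libraries (SD, n = 2 each), and the groups overlap (exact two-sided permutation p = 1, where 0.33 is the smallest p that 2 against 2 libraries can give). Leaving out hemicastrated 1 or control 1 turned the sign of this difference, to -0.0401 and -0.00561 percentage points, against 0.0125 with all 4 libraries.

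Across the 36 nuclear subunit genes in the table, levels spread widely although the finished complex holds nearly all of these subunits in equal number. The mean over the 4 libraries reached 294.8 FPKM for Ndufa7, a Q module accessory subunit, and 278 FPKM for Ndufc1, a small membrane arm subunit. Ndufa7 was at 283 and 329 FPKM in the hemicastrated and 290.0 and 277 FPKM in the control libraries. Ndufc1 was at 286 and 314 FPKM in the hemicastrated and 231 and 284 FPKM in the control libraries. Ndufb8, a membrane arm subunit often used as a marker of assembled complex, was at 204 and 209.7 FPKM in the hemicastrated and 196 and 188 FPKM in the control libraries. The median subunit stood at 55.3 FPKM and the lowest, Ndufb4, at 0.649 FPKM. Of the 46 Nduf genes, 11 had a mean of 100 FPKM or more and 9 were under 10 FPKM. Across the 46 genes the Spearman rho of mean FPKM with exon length was -0.053, a description over genes measured in the same libraries.

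**Figure D3:**
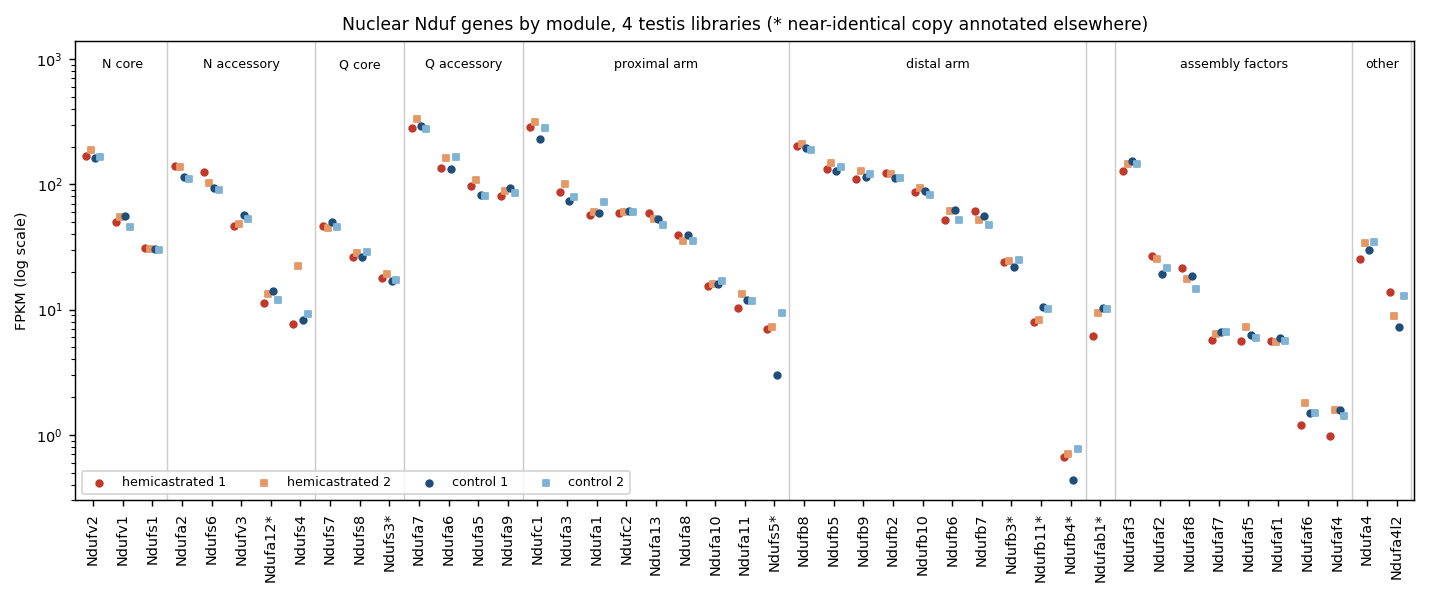
FPKM (log scale) of 45 of the 46 nuclear Nduf genes by module, in order of mean level within each, with 1 point per library (red and orange hemicastrated, blue shades control; * an annotated near-identical copy elsewhere). Points of a gene lie close together in most genes, and Ndufs4 and Ndufs5 each have 1 library apart from the other 3.

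The lowest subunit genes share an annotated feature that the naming rule did not use. By the same criterion (BLAST against GENCODE M21 transcripts), 7 of the 36 subunit genes have a near-identical copy elsewhere in the genome. They are Ndufb4, Ndufs5, Ndufab1, Ndufb11, Ndufa12, Ndufs3 and Ndufb3, and they hold ranks 1, 2, 3, 4, 7, 9 and 10 from the lowest mean. Their median level was 9.24 FPKM (0.649 to 23.9), against 85.0 FPKM (11.9 to 294.8) for the 29 genes without one. The copies, all processed pseudogenes, are not rows of the table. The values of these 7 genes are therefore uncertain, and whether the copies lower them was not tested.

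**Figure D4:**
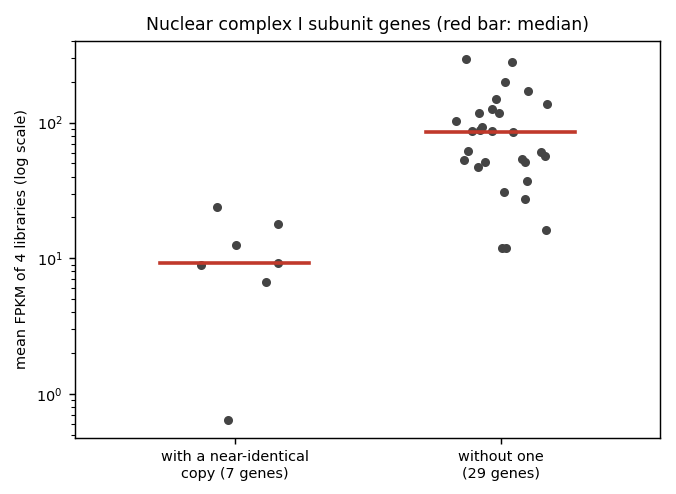
Mean FPKM over the 4 libraries (log scale) of the 36 nuclear subunit genes, 1 point per gene, with a red bar at the median. The 7 genes with a near-identical copy have a median of 9.24 FPKM, and the 29 without one have a median of 85.0 FPKM.

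Ndufb4, a distal membrane arm subunit, was at 0.668 and 0.709 FPKM in the hemicastrated and 0.440 and 0.777 FPKM in the control libraries. It was the only nuclear member under the mean of 1 FPKM needed for the test. Ndufs5, a subunit of the intermembrane space side, was at 7.06 and 7.25 FPKM in the hemicastrated and 2.99 and 9.33 FPKM in the control libraries, so control 1 is the library that stands apart. The sequences show Ndufb4 (chromosome 16, 37647170 to 37654453, minus strand) above Ndufb4c (chromosome 15, 73809507 to 73809896), and Ndufs5 (chromosome 4, 123712710 to 123718202, minus strand) above BC002163 (chromosome 16, 42955631 to 42955949). For Ndufb4 these are bases 1 to 90 of the coding sequence, which has 0 differences over 387 bases. For Ndufs5 they are bases 36 to 125, with capitals at T81C and A105G, the 2 differences found over 318 bases.
Ndufb4: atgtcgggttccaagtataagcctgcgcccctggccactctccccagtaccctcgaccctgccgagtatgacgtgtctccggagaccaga
Ndufb4c: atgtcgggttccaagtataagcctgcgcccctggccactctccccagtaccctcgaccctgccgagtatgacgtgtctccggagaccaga
Ndufs5: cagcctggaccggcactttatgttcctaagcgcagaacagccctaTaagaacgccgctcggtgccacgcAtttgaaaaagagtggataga
BC002163: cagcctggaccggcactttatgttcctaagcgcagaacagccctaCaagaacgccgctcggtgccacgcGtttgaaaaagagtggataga

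The comparison of hemicastrated with control testes called none of the complex I genes. Of the 50 members with a mean of at least 1 FPKM, 0 were lower and 0 higher at an adjusted p under 0.05 (limma, Benjamini-Hochberg over all genes tested). Of all 11343 genes tested, 1.19% were called lower and 0.106% higher, 1.30% in either direction, so a count of 0 among 50 is near the background. At an unadjusted p under 0.05, 2 members were lower and 5 higher, against 6.52% and 3.98% of all genes tested. The libraries of the groups did not overlap in 11 members with higher and 6 with lower values in the hemicastrated libraries, which is 22.0% and 12.0% of the 50. The same held for 16.3% and 24.8% of all genes tested. The log2 fold change is the difference of group means of log2(FPKM + 1), positive where the hemicastrated mean is higher. It was positive in 27 and negative in 23 of the 50, and positive in 43.4% of all genes tested. The median was 0.018 over the 50 and -0.026 over all genes tested.

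The intervals say how large a change could have gone unseen. For 48 of the 50 members the 95% interval of the log2 fold change lay within 1 of 0 in both directions. That is inside a 2-fold change of FPKM + 1, as for 94.5% of all genes tested. For members near 1 FPKM, the same interval spans a wider fold range of FPKM itself. The exceptions were Ndufs4 and Ndufs5. Data were simulated for this comparison with the means of the 11343 genes, with changes made in FPKM + 1. Of genes changed 2-fold 75.05% were recovered, and of genes changed 4-fold 98.75%. Smaller shifts were not simulated.

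**Figure D5:**
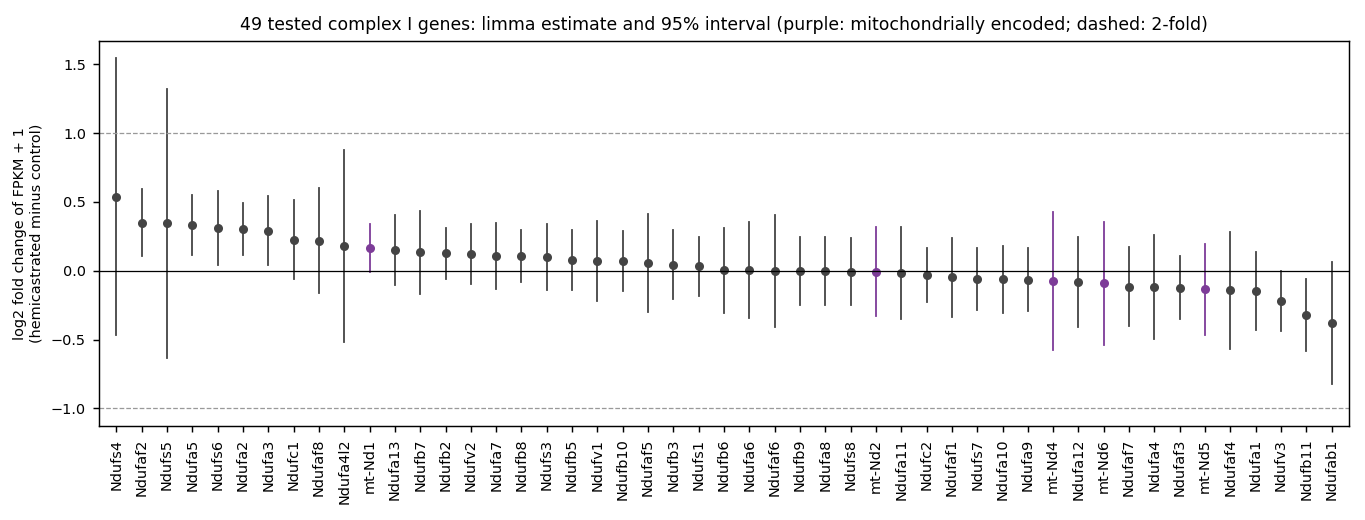
Log2 fold change (hemicastrated minus control) with its 95% interval from limma for 49 of the 50 tested complex I genes in order of size. Mitochondrially encoded genes are in purple, and dashed lines mark a 2-fold change of FPKM + 1. All 49 estimates drawn lie between -0.38 and 0.54, and the intervals of Ndufs4 and Ndufs5 alone cross a dashed line.

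In the N module, the 3 core subunits that carry the flavin and the entry iron-sulfur clusters had log2 fold changes of 0.03 to 0.12. Ndufv1, which binds NADH and the flavin, was at 50.4 and 55.1 FPKM in the hemicastrated and 55.4 and 45.3 FPKM in the control libraries. Ndufs1, the largest iron-sulfur subunit, was at 31.3 and 30.6 FPKM in the hemicastrated and 30.7 and 29.8 FPKM in the control libraries. The groups overlap in Ndufv1 and Ndufs1. Ndufv2, the remaining core subunit of the module, was at 168 and 189 FPKM in the hemicastrated and 162 and 165 FPKM in the control libraries, with no overlap (log2 fold change 0.12, limma adjusted p = 0.705). The 5 accessory N module genes spread from -0.22 to 0.54, the widest range of any module.

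Ndufa2, an N module accessory subunit, was named after its values were seen. It was at 139 and 138 FPKM in the hemicastrated and 115 and 109.7 FPKM in the control libraries, with no overlap. Its log2 fold change was 0.30 (95% interval 0.11 to 0.49, limma adjusted p = 0.229), the smallest adjusted p of any member. Exons of Tmco6 lie on the opposite strand across Ndufa2, and Tmco6 was at 0.689 and 1.13 FPKM in the hemicastrated and 1.36 and 1.56 FPKM in the control libraries. Such an overlap is annotated for 17 nuclear members, among them Ndufs6 (with Mrpl36), Ndufa3 (with Tfpt) and Ndufb11 (with Rbm10). Across Ndufs1 lie exons of Eef1b2, at 56.2 and 59.2 FPKM in the hemicastrated and 72.4 and 70.5 FPKM in the control libraries. Across Ndufa13 lie exons of Tssk6, at 185.5 and 168.5 FPKM in the hemicastrated and 195.6 and 160.6 FPKM in the control libraries. Both partners stood above the member in every library. Mrpl36 was at 14.6 and 13.25 FPKM in the hemicastrated and 13.1 and 15.1 FPKM in the control libraries. The part of these overlaps in the members' values was not tested. Ndufs6, a zinc-binding N module subunit, also named after its values were seen, was at 125 and 103 FPKM in the hemicastrated and 93.6 and 89.4 FPKM in the control libraries (log2 fold change 0.31, limma adjusted p = 0.392). This log2 fold change was 0.17 without hemicastrated 1 and 0.45 without hemicastrated 2. Ndufv3, a small N module subunit, lay the other way, at 46.1 and 48.3 FPKM in the hemicastrated and 57.2 and 53.1 FPKM in the control libraries (log2 fold change -0.22, limma adjusted p = 0.467).

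Ndufs4, an N module subunit whose loss in mice models Leigh syndrome, had the largest log2 fold change, and it rests on 1 library. It was at 7.68 and 22.2 FPKM in the hemicastrated and 8.29 and 9.31 FPKM in the control libraries. Only hemicastrated 2 is high, and hemicastrated 1 is the lowest of the 4. The log2 fold change was 0.54 (95% interval -0.47 to 1.54, limma adjusted p = 0.722). It was 1.25 without hemicastrated 1, where the gene was called (limma adjusted p = 0.00891), and -0.17 without hemicastrated 2.

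In the Q module, the 4 core genes had log2 fold changes of -0.06 to 0.10. Ndufs7, which holds the last iron-sulfur cluster before quinone, was at 46.4 and 45.01 FPKM in the hemicastrated and 49.996 and 45.5 FPKM in the control libraries. Ndufa5, an accessory subunit of the same module, was at 96.8 and 109 FPKM in the hemicastrated and 82.0 and 80.7 FPKM in the control libraries, with no overlap. Its log2 fold change was 0.33 (95% interval 0.11 to 0.55, limma adjusted p = 0.248).

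In the membrane arm, the 9 proximal accessory genes ranged from -0.15 to 0.35 and the 9 tested distal ones from -0.32 to 0.13 in log2 fold change. Ndufa3, a small membrane subunit named after its values were seen, was at 86.8 and 101 FPKM in the hemicastrated and 73.3 and 79.2 FPKM in the control libraries (log2 fold change 0.29, limma adjusted p = 0.392), and the log2 fold change was 0.19 without hemicastrated 2. Ndufa1, an X-linked subunit beside the quinone channel, was at 56.5 and 60.5 FPKM in the hemicastrated and 58.8 and 71.6 FPKM in the control libraries, and the groups overlap. Ndufb11, also X-linked, was at 7.997 and 8.20 FPKM in the hemicastrated and 10.6 and 10.2 FPKM in the control libraries, with no overlap (log2 fold change -0.32, 95% interval -0.58 to -0.06, limma adjusted p = 0.359). Ndufb11 has a pseudogene copy, Gm6444, at 96.92% identity. Ndufs5 had a log2 fold change of 0.35 (95% interval -0.63 to 1.32), which was -0.34 without control 1 and 1.03 without control 2.

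Ndufab1, the mitochondrial acyl carrier protein that also serves fatty acid and lipoate synthesis, was at 6.17 and 9.31 FPKM in the hemicastrated and 10.3 and 10.1 FPKM in the control libraries. The hemicastrated values lie below both controls, mainly through hemicastrated 1. The log2 fold change was -0.38 (95% interval -0.82 to 0.06, limma adjusted p = 0.553), the lowest of the 50 with all 4 libraries. It was -0.12 without hemicastrated 1, where Ndufb11 stood lower at -0.31, and -0.64 without hemicastrated 2. Its 2 near-identical copies also make its value uncertain.

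By the same test, mt-Nd1 had a log2 fold change of 0.16 (95% interval -0.01 to 0.34, limma adjusted p = 0.509). The other 4 tested mt-Nd genes lay between -0.14 and -0.01. The 35 tested nuclear subunit genes had a median log2 fold change of 0.07, with 22 positive and 13 negative, and the 5 mt-Nd genes had a median of -0.08. Without hemicastrated 2 these medians were 0.0075 and 0.17, and without hemicastrated 1 they were 0.12 and -0.32. Summed over the 36 nuclear subunit genes, FPKM was 2780 and 2989 in the hemicastrated and 2664 and 2695 in the control libraries. These sums do not overlap, and the exact two-sided permutation p of 0.33 is the smallest the design allows. The spermatocyte, round spermatid, Sertoli and Leydig cell sums given above lie in the same direction. So does that of 5 elongating spermatid genes (21320 and 21290 against 18780 and 20190 FPKM). The epididymal and smooth muscle sums lie the other way, as does that of 5 macrophage genes (33.1 and 30.9 against 42.3 and 39.9 FPKM). For endothelial and erythroid genes the sums of the groups overlap. Gene by gene, 4 of 6 Leydig and 2 of 5 tested Sertoli cell genes had negative log2 fold changes. The part of these cell types in the nuclear subunit sum was not tested. The ratio of the mt-Nd sum to the nuclear subunit sum was 0.689 and 0.535 in the hemicastrated and 0.618 and 0.653 in the control libraries, and the groups overlap. The limits given for the mt-Nd sum hold for this ratio too.

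The 8 assembly factors with an Nduf name build the complex and leave it when it is done. Their median was 6.29 FPKM, and Ndufaf3 stood highest at 142 FPKM. Ndufaf1, a factor for the membrane arm, was at 5.60 and 5.54 FPKM in the hemicastrated and 5.98 and 5.62 FPKM in the control libraries. Ndufaf2, which joins late in place of an N module subunit, was at 26.9 and 25.6 FPKM in the hemicastrated and 19.4 and 21.4 FPKM in the control libraries, with no overlap (log2 fold change 0.35, 95% interval 0.11 to 0.59, limma adjusted p = 0.276). A long noncoding RNA gene, B230220B15Rik, overlaps exons of Ndufaf2 on the opposite strand and is not a row of the table.

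The Nduf-named genes Ndufa4 and Ndufa4l2 are not counted as complex I subunits. Ndufa4 encodes a protein now assigned to complex IV. Its values were 25.4 and 34.3 FPKM in the hemicastrated and 30.0 and 34.5 FPKM in the control libraries. Its paralogue Ndufa4l2, known as a hypoxia-induced gene, was at 13.8 and 8.84 FPKM in the hemicastrated and 7.21 and 12.8 FPKM in the control libraries. The groups overlap in both genes, and the pair of libraries within each group differs more in Ndufa4l2 than the group means do.

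Promoter windows of the nuclear members were searched for motifs of factors known to drive respiratory genes, as a description with no test. RefSeq promoters (GRCm38.p6) were found for 40 of the 53 members, as 42 promoters, and searched on both strands beside all 32851. The motif GCGCANGCG, part of the NRF1 consensus, was in 26.2% of member promoters and 6.25% of all. The NRF1 motif was found in 10 member genes. The YY1 motif AAGATGGCG was in 14.3% of member promoters and 1.40% of all, the ETS motif CCGGAAG in 14.3% and 8.86%, and the SP1 motif GGGCGG in 52.4% and 35.7%. The CCAAT box, CCAAT, was in 33.3% of member promoters and 37.4% of all, and the TATA box, TATAAA, in 11.9% and 13.6%. The YY1 motif ends in the letters that begin the NRF1 motif, so these can overlap. A match describes letters and is not evidence of binding.

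The promoter of Ndufs6 (chr13:73328433-73328732, minus strand) is shown because it alone holds both the NRF1 and the YY1 motif. That of Ndufa5 (chr6:24527477-24527776, minus strand) holds the NRF1 motif and was picked by its values, as a member whose groups do not overlap. Of the 9 tested genes with the NRF1 motif, the groups do not overlap in Ndufa5 and Ndufs6 and overlap in the others. These 2 promoters are examples and do not link the motif to a change. Capitals mark the matches, which begin at bases 236 and 284 in Ndufs6 and at base 61 in Ndufa5, and those in Ndufs6 do not overlap.
Ndufs6: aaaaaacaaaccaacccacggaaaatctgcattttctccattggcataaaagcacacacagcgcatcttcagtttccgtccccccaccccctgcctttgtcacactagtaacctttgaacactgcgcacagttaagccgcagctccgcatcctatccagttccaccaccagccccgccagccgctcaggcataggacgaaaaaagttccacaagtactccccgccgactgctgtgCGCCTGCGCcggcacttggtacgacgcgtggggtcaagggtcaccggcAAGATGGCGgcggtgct
Ndufa5: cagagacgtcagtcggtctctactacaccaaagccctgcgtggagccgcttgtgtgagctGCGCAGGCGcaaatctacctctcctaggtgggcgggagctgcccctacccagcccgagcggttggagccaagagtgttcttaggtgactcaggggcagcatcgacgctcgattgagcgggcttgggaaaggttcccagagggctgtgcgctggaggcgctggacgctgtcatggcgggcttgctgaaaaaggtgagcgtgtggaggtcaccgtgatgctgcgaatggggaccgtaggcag
The 9 tested genes with the NRF1 motif had a median log2 fold change of 0.06, and the 30 tested genes without it 0.02. For the YY1 motif these medians were 0.22 over 6 genes with it and 0.0046 over 33 without, for the ETS motif 0.05 over 6 and 0.045 over 33, and for the TATA box 0.12 over 4 and 0.0046 over 35. The medians lay the other way for the SP1 motif, at 0.0012 over 20 genes with it and 0.07 over 19 without, and for the CCAAT box, at 0.0045 over 13 and 0.06 over 26.

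Other genes that serve complex I were not called either. Of 12 tested assembly factors without an Nduf name, 0 were called, with 6 positive and 6 negative log2 fold changes and a median of -0.02. The smallest p in this list was that of Lyrm2, which takes part in building the N module, at 18.2 and 18.8 FPKM in the hemicastrated and 14.4 and 16.1 FPKM in the control libraries (limma adjusted p = 0.449). Dmac1, a membrane arm factor, was at 25.4 and 27.2 FPKM in the hemicastrated and 22.2 and 23.0 FPKM in the control libraries. Of 17 tested genes for transcription, replication and RNA handling of mitochondrial DNA, 0 were called and the median was -0.06. In that list, Mterf3, which represses mitochondrial transcription, was at 16.3 and 15.5 FPKM in the hemicastrated and 13.1 and 14.1 FPKM in the control libraries. Tfb1m, a methyltransferase of the mitochondrial ribosome's RNA, was at 16.1 and 11.04 FPKM in the hemicastrated and 17.8 and 16.7 FPKM in the control libraries.

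Of the other mitochondrial mRNAs, 2 of 6 were tested and 0 called: mt-Co1, of cytochrome c oxidase, had a log2 fold change of -0.05, and mt-Cytb, of complex III, one of -0.06. mt-Cytb was at 466 and 442 FPKM in the hemicastrated and 481 and 462 FPKM in the control libraries, and the groups overlap.

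Complex II, which feeds electrons from succinate into the same ubiquinone pool, had 0 called of 7 tested genes and a median log2 fold change of 0.05. Sdhaf4, an assembly factor of complex II, was at 26.7 and 26.5 FPKM in the hemicastrated and 22.6 and 21.6 FPKM in the control libraries (limma adjusted p = 0.392). Sdhd, its membrane anchor, was at 26.4 and 30.0 FPKM in the hemicastrated and 31.5 and 32.2 FPKM in the control libraries. Of 6 tested regulators of mitochondrial biogenesis, 0 were called, with a median of -0.11. Gabpb1, a subunit of the ETS factor NRF-2, was at 9.83 and 7.98 FPKM in the hemicastrated and 9.79 and 13.4 FPKM in the control libraries. Pprc1, a coactivator of these genes, was at 1.46 and 0.942 FPKM in the hemicastrated and 2.04 and 1.34 FPKM in the control libraries, and the groups overlap in both.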

How the data were processed

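Poly(A) RNA of right testes was sequenced as paired ends on an Illumina instrument, per the labels' protocols, with no strand-marking step described. The deposited values are FPKM per gene and library, made by the authors. TopHat2 2.0.11 and Cufflinks 2.2.1 are listed in the submitters' processing notes with the build GRCm38, without roles. The annotation and the handling of multiply mapped reads are not given in the sources used here. Depth is unknown. The molecule field says genomic DNA, whereas the protocol and the FPKM values are those of RNA.

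Symbols and positions came from GENCODE M21 (GRCm38), which named 21806 of 22073 identifiers. Of 58 annotated members, 53 are in the table and the others were not analysed here. The 11343 genes whose mean reached 1 FPKM entered limma 3.58.1 (R 4.3.3) on log2(FPKM + 1), using a variance trend without covariates. Two-sided p-values were adjusted by Benjamini-Hochberg over all 11343. The procedure was tested on simulated data (20 runs, 100 genes changed 2-fold and 100 changed 4-fold in FPKM + 1), where 5.74% of calls were false. Single values per library were compared by exact permutation in SciPy 1.17.1.

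Members, gene lists and the naming rule were chosen with earlier results of these data known. The rule names the mt-Nd genes, called members, the 4 largest log2 fold changes in each direction, the 3 highest nuclear genes, members listed at 0 and a fixed set (Ndufv1, Ndufs1, Ndufs4, Ndufs7, Ndufa4, Ndufa4l2, Ndufab1, Ndufaf1). From each other list it names up to 2 genes of the smallest p. Some results are not reported here by gene, though all members are in the counts, sums and medians. Ndufa2, Ndufa3, Ndufs6, Ndufv2, Ndufb4, Ndufaf3, Ndufa13, the genes that overlap members and the mitochondrial neighbours were added after their values were seen. Near-identical copies were sought with BLAST 2.17.0. Alternatives changed the pseudocount, filter, scaling, block or libraries.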

Additional observations from a re-analysis of the deposited data

How the results depend on the processing

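No alternative called a complex I gene lower, and 1 was called higher, Ndufs4, when hemicastrated 1 was left out (a count of 0 to 1 over the 4 fits that leave out a library). The median log2 fold change of the nuclear subunit genes was 0.0075 to 0.12 when a library was left out and 0.06 to 0.07 under the other alternatives. It was 0.07 without the genes that have a near-identical copy, an alternative chosen after seeing the data. That of the mt-Nd genes ranged from -0.32 without hemicastrated 1 to 0.17 without hemicastrated 2.

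Over all genes, 135 were called lower and 12 higher. Leaving out a library gave 78 (without control 2) to 156 lower and 0 (without control 2) to 26 higher. With a mean of at least 5 FPKM, 63 were lower and 7 higher among 6873 genes tested, and with no filter 3 were higher among 18587. Replicate numbers were shared between groups, but the differences between numbers 1 and 2 correlated across genes at r = 0.0137, so the numbers were not taken as pairs. A fit with the number as a block called 30 genes higher and 167 lower, and no complex I gene.

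The mt-Nd share of summed FPKM, hemicastrated minus control, was -0.0401 to 0.0652 percentage points when a library was left out, and the ratio to the nuclear subunit sum differed by -0.0236. The sign of the log2 fold change turned for the genes given next when a library was left out, Ndufs4 and Ndufs5 among them. The range was -0.20 to 0.19 for mt-Nd2, -0.42 to 0.26 for mt-Nd4, -0.32 to 0.048 for mt-Nd5 and -0.34 to 0.15 for mt-Nd6. It was -0.34 to 1.03 for Ndufs5, -0.17 to 1.25 for Ndufs4, -0.0016 to 0.22 for Ndufa7 and -0.071 to 0.21 for Ndufv1. It was -0.13 to 0.0072 for Ndufs7, -0.33 to 0.088 for Ndufa4 and -0.20 to 0.55 for Ndufa4l2. Quantile normalization moved Ndufaf1 to 0.0083. The cause was not tested.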
